A study of Homo sapiens with 2 samples.

Results

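The genes described here belong to families that include proteins of the spliceosome and RNA-binding proteins that decide which exons it joins. Some members, such as the IGF2BP proteins, LSM1 and LSM11, have other roles, given below. They were taken from the table by name: every gene whose symbol begins with SRSF, HNRNP, SF3A, SF3B, U2AF, PRPF, SNRP, RBFOX, CELF, ELAVL, MBNL, PTBP, ESRP or IGF2BP, or with RBM or LSM followed by a digit. The pseudogene HNRNPKP3 and the antisense gene HNRNPU-AS1 were left out. This gave 128 symbols on 126 loci, out of 12494 gene names in the table, and all 126 had at least 1 FPKM in one or both libraries. HNRNPUL2 and HNRNPUL2-BSCL2 shared a locus, as did RBM14 and RBM4. The table had no locus named U2AF1, PRPF8, PRPF31, RBFOX2, CELF2 or ESRP1, so these genes were not read. FPKM is a fragment count scaled to the length of the locus and to the size of the library, so levels of different genes can be set side by side.

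The RNA came from SBC5, an established human small cell lung cancer cell line. The cisplatin-resistant cells had been derived from the parental cells by exposure to cisplatin, a platinum compound that links DNA strands, at 1, 2, 4 and 20 µg/ml in turn. The labels do not say whether the resistant cells are 1 clone or a mixed population, nor whether the drug was present at harvest. Both groups grew in the same serum-supplemented medium, and polyadenylated RNA of each was made into a strand-preserving library. There was 1 library for the cisplatin-resistant cells and 1 for the parental cells, so no difference below has a replicate check, and none was tested.

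Splicing removes introns from pre-mRNA. Small nuclear ribonucleoproteins (snRNPs), each built on a small nuclear RNA held in a ring of Sm or LSm proteins, recognise the ends of the intron and the branch point. SR proteins generally bind exons and favour their inclusion, whereas many hnRNP proteins oppose it, and the balance of such factors sets the pattern of alternative exons. Families such as RBFOX, MBNL, CELF, ELAVL and ESRP give neurons, muscle and epithelia their own exon programmes. Many of these genes also carry exons that send their own transcripts to nonsense-mediated decay. The table gives 1 value per locus, so it shows how much transcript each gene had and nothing of exon use.

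The table held 19217 loci. Its values summed to 1081047 FPKM in the resistant and 1019555 FPKM in the parental library, and 17574 loci in the resistant and 17075 in the parental library reached 1 FPKM. Fragment numbers and depth are unknown. The MTRNR2L loci, which resemble mitochondrial ribosomal RNA, took up 16.2% of the summed FPKM in the resistant and 6.84% in the parental library. Markers were looked up by their own names, so a marker absent from the table or on a joined locus was not compared. Of 15 neuroendocrine and small cell lung cancer markers 7 were among the genes compared. UCHL1 had 259 FPKM in resistant and 251 FPKM in parental cells, and DLL3 had 18.9 FPKM in resistant and 19.3 FPKM in parental cells. NEUROD1, CHGA and INSM1 were not among the genes compared. SCG2, a neuroendocrine granule protein, was lower, with 20.1 FPKM in resistant and 109 FPKM in parental cells (log2 ratio -2.38, defined below). None of 4 endothelial, 2 of 8 haematopoietic and 4 of 8 fibroblast markers were among the genes compared. Past the limit were PDGFRA, with 10.1 FPKM in resistant and 47.95 FPKM in parental cells (-2.14), COL3A1, with 7.51 FPKM in resistant and 1.18 FPKM in parental cells (1.97), and HBB, with 0.472 FPKM in resistant and 2.69 FPKM in parental cells (-1.32), and their part in the results below was not tested.

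Ratios below are log2 of resistant over parental FPKM, with 1 FPKM added to each, for the 12405 genes that reached 1 FPKM in one or both libraries. A gene is called higher or lower in the resistant cells at a 2-fold limit, that is, from 1 upward or from -1 downward on the log2 scale. By that limit 2 of the 126 loci (1.59%) were higher, RBFOX3 and RBM14-RBM4, against 3.28% of all genes compared. Another 2 (1.59%) were lower, RBM20 and MBNL2, against 2.70% of all genes compared. Both shares lie under those of all genes. At a 1.5-fold limit 4 loci were higher, where 7.59% of all genes were, and 2 were lower, where 6.59% were.

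Small differences ran mostly one way. The log2 ratio was below 0 for 93 of 126 loci (73.8%), against 55.6% of all genes compared, and the median was -0.13, against -0.04 for all genes. The median level was 60.5 FPKM in resistant and 69.4 FPKM in parental cells, and the summed level 12264 FPKM in resistant and 14003 FPKM in parental cells, a ratio of 0.876. The sums leave out the pseudogene HNRNPKP3, which was higher in resistant cells and would narrow the gap. As a share of all FPKM the families came to 1.13% in the resistant and 1.37% in the parental library. The MTRNR2L loci made up 16.2% of the resistant and 6.84% of the parental total, which lowers the resistant share more. With bulk RNA, fewer cells that express a gene and less RNA per cell cannot be told apart. The balance depends on the scaling of the libraries: 108 loci were below 0 with both libraries set to an equal sum, 88 after division by the median ratio, and 83 with equal sums that leave out the MTRNR2L loci. Under these scalings 46.3% to 66.0% of all genes compared were below 0, and 65.9% to 85.7% of the family members.

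**Figure D1:**
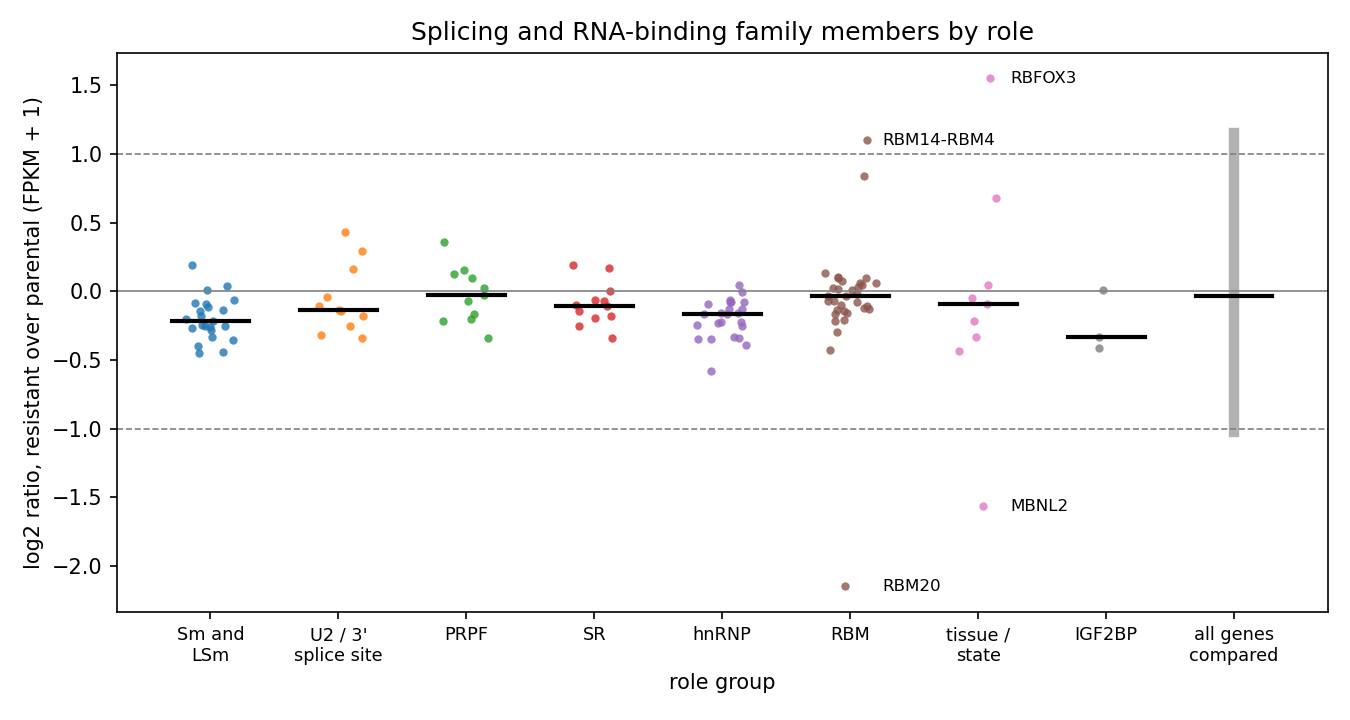
Log2 ratio of resistant over parental FPKM (1 FPKM added) for the 126 loci, 1 point per locus, by role of the protein; black bars are medians, dashed lines the 2-fold limits, and the grey bar spans the middle 95% of all genes compared, -1.03 to 1.15. Nearly all points lie within the grey bar, medians run from -0.33 for the IGF2BP proteins to -0.03 for the PRPF proteins, and the 4 labelled genes lie beyond the limits.

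The members that differed most are tissue-linked splicing regulators. RBFOX3, the neuronal splicing factor known as the antigen NeuN, had 11.9 FPKM in resistant and 3.42 FPKM in parental cells, a log2 ratio of 1.55. The gene lies on chromosome 17 at 79089345-79516148, minus strand (GRCh38), and 1.26% of genes compared had a higher ratio. RBM20, which in heart muscle represses exons of titin, had 1.17 FPKM in resistant and 8.63 FPKM in parental cells, a log2 ratio of -2.15. It lies on chromosome 10 at 110644397-110839469, plus strand, and 0.371% of genes compared had a lower ratio. MBNL2, a muscleblind protein that drives adult exon patterns in brain and muscle, had 2.52 FPKM in resistant and 9.40 FPKM in parental cells, a log2 ratio of -1.56. It lies on chromosome 13 at 97221434-97394120, plus strand, and 0.967% of genes compared had a lower ratio. All 3 were low to moderate in level, under the median of the families in both libraries.

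The fourth rests on weaker ground. RBM14-RBM4, the name for transcripts that read through from one of these neighbouring genes into the next, had 5.20 FPKM in resistant and 1.90 FPKM in parental cells, a log2 ratio of 1.10. Its locus had no strand by its place in the table, and the values stand as 11 to 4 once the worth of a read is equalised, a ratio of small whole numbers that makes few reads likely. With its 4 loci summed the log2 ratio was 0.78. The joined locus of RBM14 and RBM4 themselves had 67.4 FPKM in resistant and 70.8 FPKM in parental cells, a log2 ratio of -0.07. RBM11, a tissue-restricted splicing regulator, came next on the higher side with 1.63 FPKM in resistant and 0.467 FPKM in parental cells, a log2 ratio of 0.84 within the limit, and here too the values stand as 7 to 2.

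The genes around these members mostly did not share their differences. Of the 10 nearest compared genes around RBM20 and the 10 around RBFOX3, none passed the limit, with medians of -0.13 and -0.09. Around MBNL2 the median was -0.27 and 1 of the 10 passed, the claudin gene CLDN10 at a log2 ratio of -2.04. Around RBM14-RBM4 the median was 0.08 and none passed. These neighbours lie within 0.848 Mb of RBM20, 0.681 Mb of RBFOX3, 1.89 Mb of MBNL2 and 0.227 Mb of RBM14-RBM4.

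The sequences before the starts of RBFOX3, RBM20 and MBNL2 are shown because these 3 genes set the range of the families. They are RefSeq promoters on GRCh38.p14, read 5′ to 3′ on the strand of the gene, from chr17:79516149-79516370 (minus), chr10:110644086-110644335 (plus) and chr13:97222083-97222295 (plus). Each is the stretch free of annotated exons within the 250 bases before the RefSeq start that lies nearest to the annotated start of the gene, and capitals mark CG dinucleotides.
RBFOX3: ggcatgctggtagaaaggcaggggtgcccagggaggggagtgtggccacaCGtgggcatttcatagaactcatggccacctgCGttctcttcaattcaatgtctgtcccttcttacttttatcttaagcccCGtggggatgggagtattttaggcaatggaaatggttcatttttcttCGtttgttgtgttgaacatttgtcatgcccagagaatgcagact
RBM20: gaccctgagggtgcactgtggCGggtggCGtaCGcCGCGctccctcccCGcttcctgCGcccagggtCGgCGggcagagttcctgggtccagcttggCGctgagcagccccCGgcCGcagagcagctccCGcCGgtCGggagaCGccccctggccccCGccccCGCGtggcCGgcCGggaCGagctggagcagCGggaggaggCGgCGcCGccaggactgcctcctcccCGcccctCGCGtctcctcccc
MBNL2: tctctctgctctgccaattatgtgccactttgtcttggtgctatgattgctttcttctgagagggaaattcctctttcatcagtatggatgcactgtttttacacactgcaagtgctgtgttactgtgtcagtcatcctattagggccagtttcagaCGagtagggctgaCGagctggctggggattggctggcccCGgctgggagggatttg
In its 250 bases RBM20 had 29 CG dinucleotides, more than 85.9% of all RefSeq promoters, whereas RBFOX3 and MBNL2 had 4 each, more than 29.3%. The MBNL2 window lies after the annotated start of the gene, 97221434, and so within the annotated gene. With that limit, the genes lower in the resistant cells held 1 CG-rich and 1 CG-poor window. The RBFOX3 window also held CACCTG, the other strand of the E-box CAGGTG. RefSeq lists 12 starts for RBFOX3, 2 for MBNL2 and 1 for RBM20, and which start SBC5 cells use is not known from the table.

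Among the MBNL paralogues the mix differed. MBNL1, the muscleblind protein most widely expressed outside the brain, had 40.5 FPKM in resistant and 51.2 FPKM in parental cells, a log2 ratio of -0.33. MBNL3, the paralogue that opposes muscle differentiation in mouse cells, had 2.20 FPKM in resistant and 1.00 FPKM in parental cells, a log2 ratio of 0.68, at a locus without a strand whose values stand as 11 to 5. The summed MBNL level was 45.2 FPKM in resistant and 61.6 FPKM in parental cells. Of that sum MBNL1 held 89.6% in resistant and 83.1% in parental cells, MBNL2 5.57% in resistant and 15.3% in parental cells, and MBNL3 4.86% in resistant and 1.63% in parental cells. MBNL1 was thus the main muscleblind transcript in both.

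CELF proteins act against MBNL proteins on many exons of muscle and heart. CELF1 had 82.5 FPKM in resistant and 79.8 FPKM in parental cells, a log2 ratio of 0.05 that changed sign with equal sums. CELF4, a mainly neuronal member, had 5.40 FPKM in resistant and 7.64 FPKM in parental cells, a log2 ratio of -0.43, and CELF5 had 6.36 FPKM in resistant and 6.62 FPKM in parental cells, a log2 ratio of -0.05. The family sum was nearly the same, 94.2 FPKM in resistant and 94.0 FPKM in parental cells. ELAVL1, known as HuR, which stabilises mRNAs with AU-rich elements, had 86.1 FPKM in resistant and 100.4 FPKM in parental cells, a log2 ratio of -0.22.

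ESRP2, which with its paralogue sets epithelial exon choices, had 15.6 FPKM in resistant and 16.7 FPKM in parental cells, a log2 ratio of -0.09. Of 13 epithelial genes read beside it 6 were compared, and all 6 had ratios above 0, with a median of 1.28. Past the limit 3 were higher, where 3.28% of all genes compared were. EPCAM, CLDN7, KRT18, OVOL1, GRHL2, RAB25 and ST14 were not among the genes compared. CDH1, the epithelial cadherin, had 4.81 FPKM in resistant and 0.536 FPKM in parental cells (log2 ratio 1.92), and CDS1 had 15.01 FPKM in resistant and 3.40 FPKM in parental cells (1.86). TJP3, a tight junction scaffold, had 8.34 FPKM in resistant and 2.00 FPKM in parental cells (1.64). OVOL2 stood at 0.91, KRT8 at 0.12 and CLDN4 at 0.02, within the limit. Of 8 mesenchymal genes 5 were compared and 1 was lower, where 2.70% of all genes compared were, and ZEB2, SNAI2 and FN1 were not compared. The lower gene was ZEB1, the repressor of CDH1, with 4.06 FPKM in resistant and 13.8 FPKM in parental cells (-1.54). CDH2 stood at -0.93, VIM at -0.68, TWIST1 at 0.44 and SNAI1 at 0.05. With a pseudocount of 5 only CDS1 of the epithelial genes passed the limit, CDH1 stood at 0.82 and ZEB1 at -1.05.

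The PTBP paralogues, which repress neuronal exons, were near-constant in their mix. PTBP1 had 132 FPKM in resistant and 128 FPKM in parental cells, a log2 ratio of 0.05 that was -0.04 with equal sums, and held 80.2% of the family's FPKM in resistant and 78.9% in parental cells. PTBP2, the neuronal form, had 7.01 FPKM in resistant and 7.05 FPKM in parental cells, and PTBP3 25.6 FPKM in resistant and 27.1 FPKM in parental cells. The IGF2BP proteins bind and stabilise mRNAs in embryos and in many tumours. IGF2BP1 had 25.3 FPKM in resistant and 32.1 FPKM in parental cells (log2 ratio -0.33), and IGF2BP3 had 13.7 FPKM in resistant and 18.6 FPKM in parental cells (-0.41). IGF2BP2 had 24.5 FPKM in resistant and 24.3 FPKM in parental cells (0.01, and -0.07 with equal sums), so the family sum of 63.6 FPKM in resistant and 75.1 FPKM in parental cells differed through the other two.

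**Figure D2:**
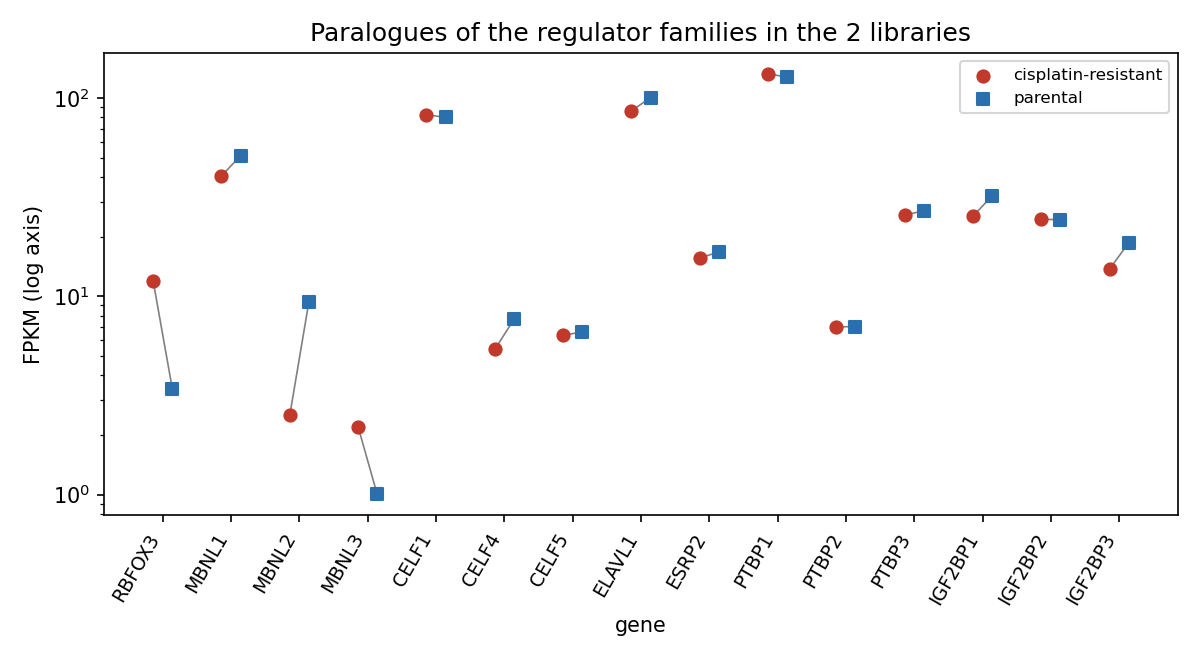
FPKM (log axis) of the RBFOX, MBNL, CELF, ELAVL, ESRP, PTBP and IGF2BP genes, with circles for cisplatin-resistant and squares for parental cells, 1 library each. RBFOX3 and MBNL2 show the widest gaps, in opposite directions, and PTBP2 at 7.01 FPKM in resistant and 7.05 FPKM in parental cells shows almost none.

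Most SNRP and LSM genes had ratios slightly below 0. This group, labelled Sm and LSm in the figures, also holds the particle-specific SNRPA, SNRPA1, SNRPB2 and SNRPC. Of 23 loci 20 had ratios below 0 (87.0%), the median was -0.22, the range -0.45 to 0.19, and none passed the 2-fold limit. Of all genes compared 55.6% were below 0, and 69.4% of those with a mean of at least 50 FPKM. All 12 SNRP loci were below 0, under each of the 4 scalings tried, with a median of -0.26 and a sum of 2073 FPKM in resistant and 2577 FPKM in parental cells, a ratio of 0.805. The 7 genes whose proteins close the Sm ring around spliceosomal RNA, SNRPB, SNRPD1, SNRPD2, SNRPD3, SNRPE, SNRPF and SNRPG, summed to 1521 FPKM in resistant and 1934 FPKM in parental cells, a ratio of 0.787. One copy of each protein sits in a ring, but the transcripts spanned a wide range, 36.6 to 455 FPKM in resistant and 39.0 to 624 FPKM in parental cells.

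Within the ring, SNRPG had 455 FPKM in resistant and 624 FPKM in parental cells (log2 ratio -0.45), and SNRPF had 207 FPKM in resistant and 281 FPKM in parental cells (-0.44). SNRPE had 72.6 FPKM in resistant and 96.1 FPKM in parental cells (-0.40). These are the ring's most negative ratios, and 9.67% to 11.6% of all genes compared had lower ones. The proteins of SNRPE, SNRPF and SNRPG form 1 subcomplex before the ring closes, and any link to the ratios was not tested. SNRPD1 had 50.8 FPKM in resistant and 61.3 FPKM in parental cells (-0.27), SNRPD2 had 445 FPKM in resistant and 530 FPKM in parental cells (-0.25), and SNRPB had 254 FPKM in resistant and 303 FPKM in parental cells (-0.25). SNRPD3, the lowest of the ring, had 36.6 FPKM in resistant and 39.0 FPKM in parental cells (-0.09). Within this complex the ratios thus ran from -0.45 to -0.09, a spread that 1 library per group cannot set against error.

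The particle-specific proteins lay in the same range. SNRPA and SNRPC, proteins of the U1 particle that finds the 5′ splice site, had ratios of -0.33 and -0.12, with 78.2 FPKM in resistant and 98.5 FPKM in parental cells for SNRPA and 173 FPKM in resistant and 187 FPKM in parental cells for SNRPC. SNRPA1 and SNRPB2 of the U2 particle stood at -0.24 and -0.14. SNRPN, the imprinted relative of SNRPB, shares a locus with SNURF in the table, which had 179 FPKM in resistant and 214 FPKM in parental cells (-0.26).

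LSm proteins form the ring of U6 RNA and a cytoplasmic ring that promotes mRNA decay. Of the U6 ring 6 genes were measured, LSM3 to LSM8, and 4 were below 0 (66.7%, against 55.6% of all genes compared). LSM6 had the highest level of the families, 1234 FPKM in resistant and 1433 FPKM in parental cells (-0.22), although its partners LSM3, LSM4, LSM5, LSM7 and LSM8 ranged from 28.0 to 105 FPKM in resistant and 32.4 to 105 FPKM in parental cells. Without LSM6 these 5 summed to 349 FPKM in resistant and 361 FPKM in parental cells, a ratio of 0.966. LSM3 and LSM4 had ratios of 0.01 and 0.04, both negative with equal sums. LSM1, specific to the decay ring, had 50.4 FPKM in resistant and 61.3 FPKM in parental cells (-0.28), and LSM12 had 53.0 FPKM in resistant and 68.0 FPKM in parental cells (-0.35). LSM11, which with LSM10 belongs to the U7 particle that trims histone mRNA, was the highest ratio of the group at 0.19, with 33.1 FPKM in resistant and 28.8 FPKM in parental cells.

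**Figure D3:**
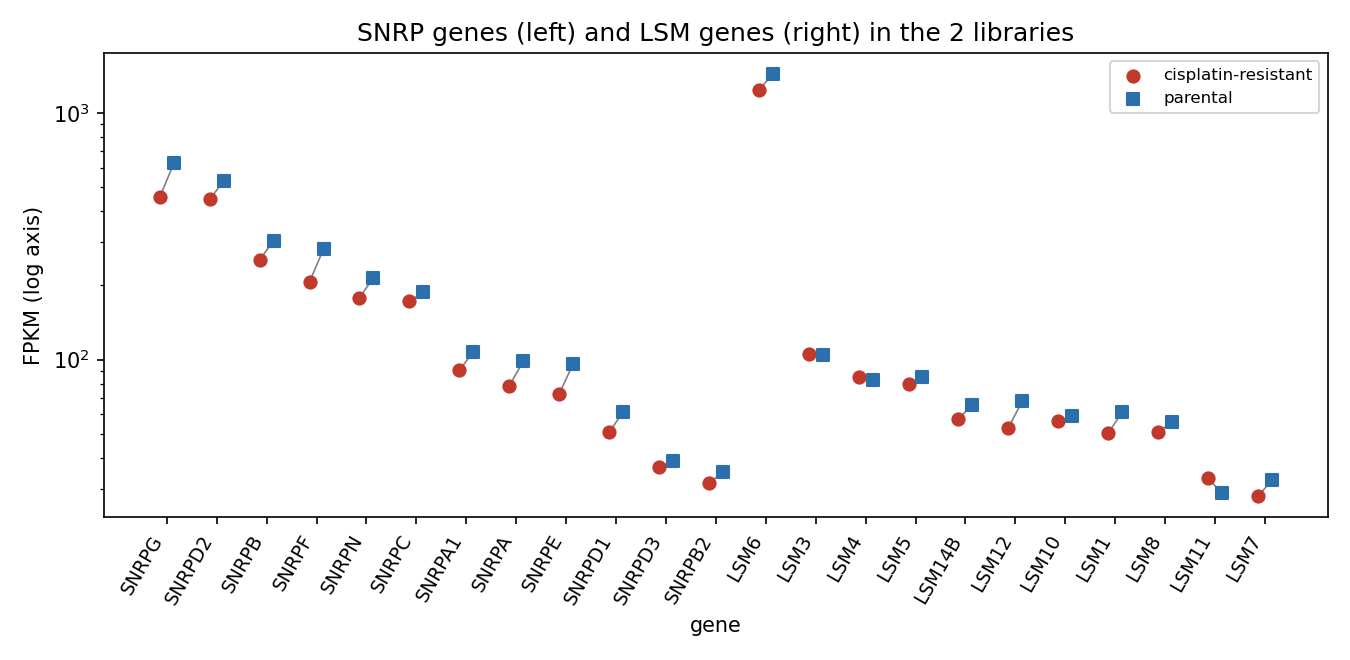
FPKM (log axis) of the 12 SNRP loci (left) and 11 LSM loci (right), each ordered by mean level, with circles for cisplatin-resistant and squares for parental cells, 1 library each. Every SNRP circle sits below its square, and LSM6 at 1234 FPKM in resistant and 1433 FPKM in parental cells stands far above the other LSM genes.

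Promoters of the SNRP and SF3 genes are shown because a short motif was frequent in them. Whether the motif has a link to the ratios was not tested. The letters CCGGAAG, the core bound by ETS factors, were searched on both strands (CTTCCGG on the other) in the 250 bases before the start. They occurred in 7 of 11 SNRP promoters (63.6%), 3 of 3 SF3A and 3 of 5 SF3B promoters, against 31 of the 111 family symbols found in the RefSeq table (27.9%), 16.1% of the promoters of genes compared and 8.52% of all 35116 RefSeq promoters. Of the HNRNP promoters, a family whose ratios were all below 0, 3 of 21 (14.3%) held it. The SNRP promoters without it were those of SNRPA, SNRPD3, SNRPF and SNRPN, whose ratios were also below 0. Members with ratios above 0 that held it include U2AF2 and SRSF4. The stretches below are on GRCh38.p14, 5′ to 3′ on the strand of the gene and free of annotated exons, from chr2:70293459-70293617 (SNRPG, minus), chr15:101295283-101295418 (SNRPA1, minus), chr6:34757255-34757405 (SNRPC, plus), chr20:16729881-16729960 (SNRPB2, plus) and chr2:24076444-24076525 (SF3B6, minus), and capitals mark the motif on either strand.
SNRPG: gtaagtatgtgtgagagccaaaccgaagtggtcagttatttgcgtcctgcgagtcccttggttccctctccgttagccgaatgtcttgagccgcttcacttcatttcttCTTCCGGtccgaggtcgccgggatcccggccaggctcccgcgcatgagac
SNRPA1: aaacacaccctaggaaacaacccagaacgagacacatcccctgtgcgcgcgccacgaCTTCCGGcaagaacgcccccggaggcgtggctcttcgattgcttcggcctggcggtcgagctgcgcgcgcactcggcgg
SNRPC: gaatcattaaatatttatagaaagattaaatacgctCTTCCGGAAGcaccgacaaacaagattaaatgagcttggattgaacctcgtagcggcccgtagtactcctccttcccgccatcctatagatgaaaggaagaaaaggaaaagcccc
SNRPB2: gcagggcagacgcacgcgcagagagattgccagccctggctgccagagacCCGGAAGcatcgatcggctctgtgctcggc
SF3B6: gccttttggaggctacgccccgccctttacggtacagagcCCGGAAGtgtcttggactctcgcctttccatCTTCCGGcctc
In SNRPC the matches on the 2 strands overlap, and SF3B6 holds 2 separate matches. The SNRPG stretch lies within the annotated gene, which on the minus strand starts at 70293771. A match describes these letters and shows no binding. In the 250 bases the families had a median of 22 CG dinucleotides, as did the promoters of genes compared, against 11 over all promoters. The letters TATAAA occurred in 5.41% of the family promoters, 4.88% of those of genes compared and 10.7% of all promoters. CAGGTG, an E-box that ZEB1 binds, occurred in 12 family promoters (10.8%), 15.7% of those of genes compared and 17.5% of all.

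The SF3A and SF3B proteins, with which the U2 particle binds the branch point, leaned the same way as the SNRP genes but less. All 6 SF3B loci had ratios below 0, with a median of -0.14 and a sum of 628 FPKM in resistant and 708 FPKM in parental cells, and 5 were below 0 with equal sums that leave out the MTRNR2L loci. Of all genes compared with a mean of at least 50 FPKM, 69.4% were below 0. SF3B4 had 99.7 FPKM in resistant and 126 FPKM in parental cells (-0.34), and SF3B3 had 80.0 FPKM in resistant and 99.9 FPKM in parental cells (-0.32). SF3B1, the subunit that holds the branch point and is mutated in some blood cancers, had 86.8 FPKM in resistant and 95.7 FPKM in parental cells (-0.14). SF3A1 had 123 FPKM in resistant and 139 FPKM in parental cells (-0.18), and SF3A3 had 76.3 FPKM in resistant and 91.0 FPKM in parental cells (-0.25).

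The 3 loci of this group above 0 included both U2AF loci found, U2AF2 and U2AF1L4, while the table had no U2AF1. U2AF2, which binds the pyrimidine tract before the 3′ splice site, had 128 FPKM in resistant and 114 FPKM in parental cells (0.17). U2AF1L4, a paralogue of the small U2AF subunit, had 11.6 FPKM in resistant and 8.37 FPKM in parental cells (0.43). The third, at 0.29, was the joined locus of SF3A2 and its neighbour AMH, with 29.9 FPKM in resistant and 24.3 FPKM in parental cells, where reads of the 2 genes are not separated. All 3 lie on chromosome 19, where 8 of the 14 member loci had ratios below 0.

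Of 11 PRPF genes, named for yeast mutants in pre-RNA processing, 6 had ratios below 0 (54.5%, near the 55.6% of all genes compared), with a median of -0.03 that was 0.01 after division by the median ratio. PRPF19, the ubiquitin ligase at the heart of a complex that activates the spliceosome, had 76.7 FPKM in resistant and 97.6 FPKM in parental cells (-0.34). PRPF3 and PRPF4, proteins of the U4/U6 particle, stood at -0.22 and -0.17, with 36.4 FPKM in resistant and 42.5 FPKM in parental cells for PRPF3 and 97.7 FPKM in resistant and 110 FPKM in parental cells for PRPF4. PRPF39, a U1-associated protein, had 13.5 FPKM in resistant and 10.3 FPKM in parental cells (0.36). PRPF38B had 12.8 FPKM in resistant and 11.4 FPKM in parental cells (0.15), and the kinase PRPF4B had 31.6 FPKM in resistant and 28.97 FPKM in parental cells (0.12). PRPF40B had 17.9 FPKM in resistant and 20.7 FPKM in parental cells (-0.20).

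Of 12 SR protein genes 9 had ratios below 0 (75.0%), the median was -0.10 and none passed the 2-fold limit. Of all genes compared 55.6% were below 0, and 69.4% of those with a mean of at least 50 FPKM, where most SR genes lie. SRSF9 had 160 FPKM in resistant and 203 FPKM in parental cells (-0.34), SRSF7 had 76.3 FPKM in resistant and 91.0 FPKM in parental cells (-0.25), and SRSF10 had 110 FPKM in resistant and 126 FPKM in parental cells (-0.19). SRSF3, the most abundant, had 231 FPKM in resistant and 243 FPKM in parental cells (-0.07). SRSF1, the founding member, had 57.4 FPKM in resistant and 60.1 FPKM in parental cells (-0.07). SRSF6 was equal to 3 digits at 73.8 FPKM in resistant and 73.8 FPKM in parental cells. SRSF4 had 124 FPKM in resistant and 111 FPKM in parental cells (0.17), and SRSF8, an intronless relative of SRSF2, had 14.3 FPKM in resistant and 12.4 FPKM in parental cells (0.19). In the annotation all 12 SR genes have a transcript marked for nonsense-mediated decay, as do 65 of the 126 loci (51.6%) and 43.8% of the protein-coding genes compared. The table does not separate such transcripts from the coding ones.

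The hnRNP genes were among the most abundant, and 23 of the 24 HNRNP and PTBP loci had ratios below 0 (95.8%). Of all genes compared 55.6% were below 0, and 69.4% of those with a mean of at least 50 FPKM. All 21 HNRNP loci had ratios below 0, with a median of -0.22 and a sum of 4094 FPKM in resistant and 4726 FPKM in parental cells, a ratio of 0.866. That sum leaves out the pseudogene HNRNPKP3, described below. With equal sums that leave out the MTRNR2L loci 20 of the 21 were below 0. HNRNPDL, a relative of HNRNPD that regulates its own splicing, had 63.4 FPKM in resistant and 95.5 FPKM in parental cells, and its log2 ratio of -0.58 was the lowest of all members above 50 FPKM. HNRNPD, known as AUF1, which targets AU-rich mRNAs for decay and lies next to HNRNPDL on chromosome 4, had 141 FPKM in resistant and 179 FPKM in parental cells (-0.34). HNRNPH3 had 72.2 FPKM in resistant and 95.2 FPKM in parental cells (-0.39). HNRNPU, which also binds chromatin as a scaffold attachment factor, had 145 FPKM in resistant and 185 FPKM in parental cells (-0.35).

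The classical core hnRNP proteins followed. HNRNPA2B1 had 345 FPKM in resistant and 439 FPKM in parental cells (-0.35), and HNRNPC, which binds uridine tracts, had 204 FPKM in resistant and 257 FPKM in parental cells (-0.33). HNRNPA1, which represses many exons, had 555 FPKM in resistant and 608 FPKM in parental cells (-0.13). HNRNPK had 277 FPKM in resistant and 312 FPKM in parental cells (-0.17), and HNRNPAB, nearest to 0 of the family, had 154 FPKM in resistant and 161 FPKM in parental cells (-0.06). The highest hnRNP value, 843 FPKM in resistant and 941 FPKM in parental cells (-0.16), belongs to a locus that joins HNRNPH2 with the ribosomal protein gene RPL36A, and the share of each is not given. HNRNPA1L2, an intronless copy of HNRNPA1, had 1.35 FPKM in resistant and 1.63 FPKM in parental cells, values that stand as 5 to 6, at a locus without a strand. HNRNPKP3, a pseudogene copy of HNRNPK, was listed at 1839 FPKM in resistant and 1007 FPKM in parental cells, and reads could be divided between such copies and their source genes in ways the table does not show.

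The RBM genes are a loose collection of proteins with an RNA recognition motif. Of 33 loci 19 were below 0 (57.6%, near the 55.6% of all genes compared) and 14 above, with a median of -0.04 that was 0.03 with equal sums that leave out the MTRNR2L loci. Beside RBM20, the lowest were RBM26, a zinc finger protein linked to nuclear RNA decay, with 87.6 FPKM in resistant and 118 FPKM in parental cells (-0.43), and RBM10, an exon-skipping regulator often mutated in lung adenocarcinoma, with 73.7 FPKM in resistant and 90.8 FPKM in parental cells (-0.30). RBM12, at a locus joined with CPNE1, had 155 FPKM in resistant and 181 FPKM in parental cells (-0.22). RBM39, a U2AF-like splicing factor that aryl sulfonamide drugs degrade, had 138 FPKM in resistant and 146 FPKM in parental cells (-0.08). RBM22, which contacts the catalytic RNA of the spliceosome, had 47.4 FPKM in resistant and 43.2 FPKM in parental cells (0.13). RBM5, a relative of RBM10, had 18.1 FPKM in resistant and 17.9 FPKM in parental cells, and the cold-induced RBM3 had 79.4 FPKM in resistant and 76.9 FPKM in parental cells.

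The direction of the ratios went along with expression level. Among members with a mean of at least 50 FPKM, 63 of 71 were below 0 (88.7%), with a median of -0.18 and a range of -0.58 to 0.17, against 69.4% of all genes of that level, whose median was -0.10. Among members under 50 FPKM, 30 of 55 were below 0 (54.5%), with a median of -0.03, against 52.6% of all genes of that level. All 4 members past the 2-fold limit were in this lower class. Under the other scalings 58 to 69 of the 71 abundant members were below 0, the fewest with equal sums that leave out the MTRNR2L loci (81.7%, against 56.9% of all genes of that level) and the most with equal sums (97.2%, against 81.7%).

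**Figure D4:**
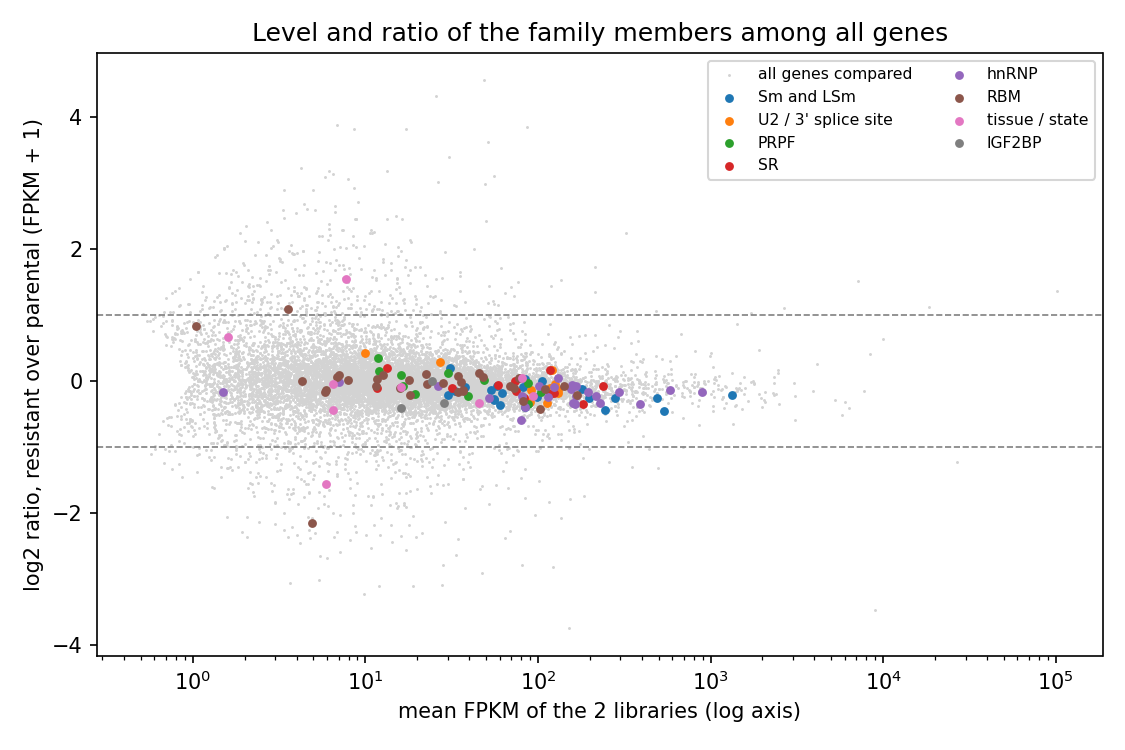
Log2 ratio of resistant over parental FPKM (1 FPKM added) against the mean FPKM of both libraries (log axis), with family members coloured by role over all 12405 genes compared in grey and dashed lines at the 2-fold limits. Members above 50 FPKM form a narrow band from -0.58 to 0.17, and the members past the limits lie below 10 FPKM.

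**Figure D5:**
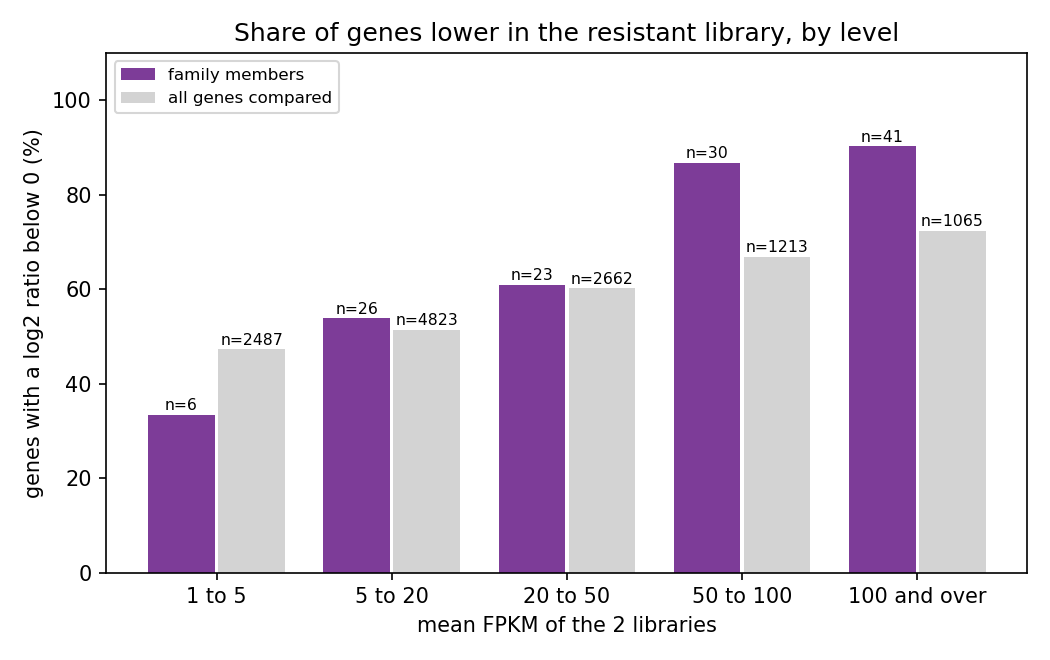
Percent of genes with a log2 ratio below 0 by class of mean FPKM, for family members (purple) and all genes compared (grey), with the number of genes above each bar. From 50 to 100 FPKM the shares are 86.7% of members and 66.8% of all genes, at 100 FPKM and over 90.2% and 72.3%, and below 50 FPKM the bars of the 2 sets are close except in the lowest class, which holds only 6 members.

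Some symbols had more than 1 locus. Beside the 126 loci described, 31 further loci carried a member name, 27 of them without a strand, and their highest value was 13.5 FPKM, at an RBM6 locus in parental cells. Of the 31, 2 passed the limit as higher and 1 as lower, where 3.28% and 2.70% of all genes compared did. With so few loci at low levels, these counts are not read as a result. A further RBM48 locus had 6.88 FPKM in resistant and 2.76 FPKM in parental cells (1.07), while the main RBM48 locus had 6.98 FPKM in resistant and 6.66 FPKM in parental cells (0.06). A locus named HNRNPUL2-BSCL2 had 1.52 FPKM in resistant cells and was listed at 0 in parental cells. An RBM4B locus in the plus part of the table, although the gene is annotated on the minus strand, had 1.72 FPKM in resistant and 5.74 FPKM in parental cells (-1.31). For 16 of the 31 the values stand as a ratio of small whole numbers. SRSF5 had a second locus on the opposite strand with 13.1 FPKM in resistant and 8.41 FPKM in parental cells (0.59), against 70.7 FPKM in resistant and 78.3 FPKM in parental cells at its own (-0.15).

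Other genes of the splicing machinery that do not carry these family names were read beside them. Of 78 other core spliceosome genes 71 were compared, none passed the 2-fold limit, 49 were below 0 and the median was -0.08. EFTUD2, the GTPase of the U5 particle, had 56.5 FPKM in resistant and 74.4 FPKM in parental cells (-0.39), and U2SURP had 134 FPKM in resistant and 117 FPKM in parental cells (0.20). Of 33 genes of the SMN complex and snRNA maturation, the route by which Sm rings are loaded, 28 were compared, none passed, 22 were below 0 and the median was -0.12. WDR77, a partner of the methylase that modifies Sm proteins, had 52.5 FPKM in resistant and 70.1 FPKM in parental cells (-0.41). Ratios ran from -0.43 to 0.24 in the core list and from -0.47 to 0.10 in the maturation list. Of all genes compared 3.28% were higher and 2.70% lower at the 2-fold limit, and of those with a mean of at least 50 FPKM 1.10% and 1.71%. Below 0 were 55.6% of all genes compared and 69.4% of those with a mean of at least 50 FPKM. Both lists hold genes under and over 50 FPKM.

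Of 44 SR-like proteins, SR protein kinases and exon junction factors 40 were compared, 22 were below 0, the median was -0.03, and 1 was higher. That was SRPK3, a muscle-enriched kinase of SR proteins, with 3.60 FPKM in resistant and 0.328 FPKM in parental cells (1.79). SRRM3, a neuronal microexon regulator, lay just within the limit with 3.44 FPKM in resistant and 7.87 FPKM in parental cells (-0.998). Of 75 other RNA-binding regulators 66 were compared, 47 were below 0, the median was -0.16, 2 were higher and 2 lower. RBMS1 had 27.4 FPKM in resistant and 6.92 FPKM in parental cells (1.84), and CPEB3, which controls translation through polyadenylation elements, had 36.6 FPKM in resistant and 14.3 FPKM in parental cells (1.30). YBX2, a germ cell Y-box protein whose locus here had no strand, had 1.93 FPKM in resistant and 9.67 FPKM in parental cells (-1.87), and RBPMS, a splicing regulator of smooth muscle, had 0.417 FPKM in resistant and 2.51 FPKM in parental cells (-1.31). The counts past the limit in both lists are near the shares of all genes compared, 3.28% higher and 2.70% lower. Below 0 were 55.6% of all genes compared.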

How the data were processed

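Polyadenylated RNA was sequenced from 1 library of cisplatin-resistant and 1 of parental SBC5 cells. The deposited values are FPKM per the file headers, with a column for each library; the authors scaled fragments by locus length and library size, as that unit implies. Per the submitters' processing notes, TopHat2 was used and hg38 was the genome build. Which program and gene models gave the FPKM is not given in the sources used here. The table holds no counts, so depth is unknown and no interval could be given. Low values often stood in ratios of whole numbers: of 7591 loci under 5 FPKM in both libraries, 52.9% had values that, after correction by the factor 0.996, stood as 2 whole numbers of at most 20 (relative tolerance 2e-05), against 0.213% on average with wrong factors. Multiples of both numbers give the same ratio, so this does not give read numbers.

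Of the 19217 loci, 2919 had no name and 23 had a date for a name, and these were left out. Each name was represented by its locus of highest mean FPKM. Strand was inferred from the order of loci on each chromosome, and 98.7% of annotated loci in a plus or minus part lay on that strand. Genes reaching 1 FPKM in one or both libraries, 12405 in all, were compared by the log2 ratio of FPKM plus 1, with a 2-fold limit in place of a test. Positions, strands and transcript types came from GENCODE release 29 (GRCh38, the same build as hg38), and promoters from RefSeq on GRCh38.p14, matched by symbol. Stretches under annotated exons were not printed.

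Members and lists were chosen with earlier results of these data known. Genes named are those past 2-fold, the 3 highest and 3 lowest ratios and the 2 highest levels of each role, all members of the regulator families, up to 3 genes past the limit of each other list and the measured epithelial and mesenchymal genes. Some genes that this rule names are not reported here. Further genes, single loci and the promoters printed were picked with their values in view. The script was tested on simulated data. Alternatives were other pseudocounts, filters, scalings, choices of locus, a 1.5-fold limit and fewer names. Tables were computed with pandas 2.3.3 and NumPy 2.4.6 under Python 3.11.15, and figures were drawn with matplotlib 3.10.9.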

Additional observations from a re-analysis of the deposited data

How the results depend on the processing

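No paired analysis was possible because each group has 1 library, and no library could be left out. The count of members higher at the 2-fold limit was 2 and became 4 with a pseudocount of 0.1 or a 1.5-fold limit. It became 1 with a pseudocount of 5, with loci summed, with only loci that have a strand, and with joined, readthrough and copy names left out. The count of members lower, 2, became 1 with a pseudocount of 5, where MBNL2 had a log2 ratio of -0.94. With a pseudocount of 0.1, RBM11 and MBNL3 passed at 1.61 and 1.06. The median over members was -0.13, against -0.21 with equal sums, -0.087 after division by the median ratio and -0.061 with equal sums without the MTRNR2L loci, a scaling chosen after seeing the data. Equal sums put the median of the SNRP and LSM loci at -0.30. The PRPF and RBM medians were 0.014 and 0.0011 after division by the median ratio, and 0.040 and 0.027 with the MTRNR2L loci left out of equal sums. Past the limit, the SR-like list held 2 genes with a pseudocount of 0.1 or equal sums and 0 with a pseudocount or filter of 5 FPKM. The other RNA-binding regulators held 7 and the mesenchymal genes 2 with a pseudocount of 0.1, and the epithelial genes 1 with a pseudocount of 5. RBFOX3 and RBM20 stayed past the limit under each of these settings. By construction a pseudocount acts on low values. Other causes were not tested. Differences of the size seen in most members, under 1.5-fold, cannot be set against replicate error here.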
